A study of Homo sapiens with 12 samples.

Results

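The genes described here encode the subunits of potassium, sodium and calcium channels, followed in LN229, an established human glioblastoma cell line. They were chosen by gene symbol: every gene with a symbol of the KCN, SCN or CACN series, restricted to the pore-forming and auxiliary subunits of these channels and to messenger RNA transcripts of RefSeq. 136 of the 22257 genes in the count tables met this rule, and 3 further symbols that matched it were left out because they had non-coding transcripts alone. RNA sequencing libraries had been made from 12 samples in 3 groups of 4, each kept for 24 h in RPMI medium whose serum (10%) had been dialyzed to remove small molecules. The groups differed in what was added: 1 mM glucose, the same plus 5 mM acetate, or 10 mM glucose. The cells of all groups are 1 line without any stated gene change, lysed in Trizol after growth to 80% confluence in 6-well dishes. The labels do not say that the 4 samples of a group came from separate cultures, so p-values measure only how far these samples varied, and that variation may be technical.

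Voltage-gated channels open when the membrane depolarises: sodium channels carry the fast inward current of an action potential, calcium channels admit calcium that acts as a signal, and potassium channels return the membrane to rest. Other potassium channels answer to internal calcium (KCNMA1, KCNN), pass current mainly inward and set the resting potential (KCNJ), or leak at all voltages (KCNK). Glioma cells are best known for large calcium-activated potassium currents, which have been linked to changes of cell volume during migration.

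Library totals lay between 24412941 and 27183702 counts. Levels are given as CPM, counts scaled to a common library size, with trimmed-mean (TMM) scaling factors, as mean ± SD with n = 4. They are divided by transcript length where genes are compared with each other. Differences were tested with edgeR's quasi-likelihood test over 14416 genes with Benjamini-Hochberg adjustment, and a gene counted as changed at an adjusted p under 0.05. In 2 libraries, replicate 3 at 1 mM glucose and replicate 1 with acetate, long transcripts had low counts: the rank correlation of a gene's deviation from its mean with transcript length was -0.486 and -0.481 there and -0.178 to 0.228 in the other 10. The tested channel transcripts are longer than most, with a median of 3824 bases against 2971.5 over all tested genes, so results that turn on these libraries are given with and without them. In bulk RNA, fewer cells of a type and less RNA per cell cannot be told apart. VIM (vimentin), a marker of such lines, stood at 5247 ± 535 CPM at 1 mM glucose, while the astrocyte marker GFAP was near the detection limit, at 0.98 ± 0.282 CPM.

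Of the 136 genes, 46 reached 1 CPM in at least 1 library and are called expressed, 90 did not, and 10 of these had no count in any library. The pore-forming voltage-gated potassium subunits made up 40 genes with 11 expressed, and their auxiliary subunits 13 with 9 expressed. Of the calcium- or sodium-activated potassium group 6 of 12 were expressed, of the inward rectifiers 4 of 16, and of the two-pore channels 4 of 15. Among sodium channels 4 of 10 alpha subunits and 1 of 4 beta subunits were expressed. The calcium channel genes were uneven: all 4 beta subunits were expressed, but 1 of 10 alpha1 pores (CACNA1D), 0 of 4 alpha2-delta subunits and 2 of 8 gamma subunits. The genes nearest the limit were KCNE2 and KCNH5, whose highest library held 1.01 and 1.04 CPM of library totals, and KCNJ13 and CACNG7, whose highest held 0.934 and 0.883. At 0.5 CPM 58 genes would count as expressed, at 1 CPM in 4 libraries 41, and with TMM scaling 45, without KCNH5.

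KCNG1, a silent potassium subunit that forms no channel alone and modifies other pores, had the highest level of the set, with 80.3 CPM per kb of transcript at 1 mM glucose, 64.9 when acetate was added and 29.2 at 10 mM glucose. KCNN4, the intermediate-conductance calcium-activated potassium channel, ran the other way, with 35.6, 42.2 and 59.6 CPM per kb, so that the order of both genes in these means switched between 1 and 10 mM glucose. KCNS3, another silent modifier subunit, followed at 14.5, 16.8 and 18 CPM per kb, and KCNMA1, the large-conductance calcium-activated channel, at 14.8, 15 and 11.6. The next by the mean over all libraries were CACNB3, KCNQ5, KCNH1, KCNIP3, KCNAB3 and KCNIP4, all between 2.83 and 9.16 CPM per kb. Summed over the 136 genes, the level was 658 ± 18.5 CPM at 1 mM glucose, 654 ± 11.8 when acetate was added and 615 ± 15.6 at 10 mM.

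**Figure D1:**
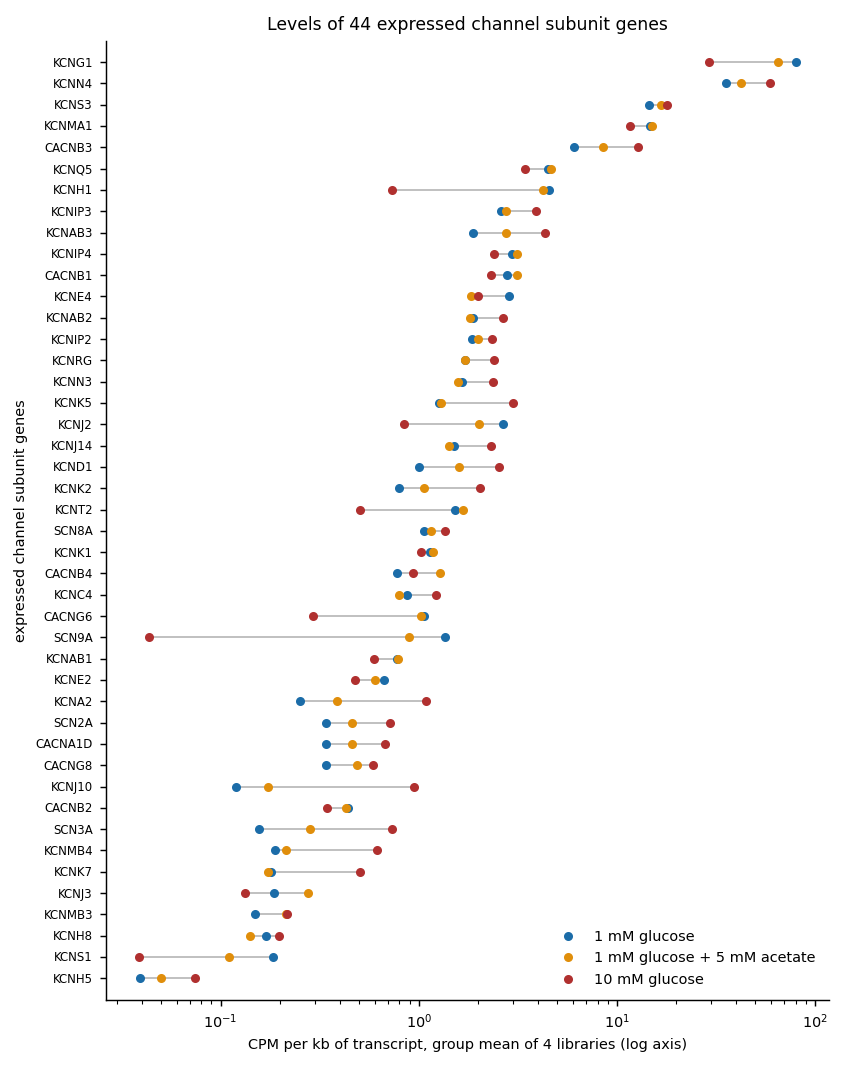
Mean level of 44 of the 46 expressed channel subunit genes in CPM per kb of transcript (log axis), 1 point per group (4 libraries each), genes ordered by their mean over all libraries. KCNG1 and KCNN4 lead, and SCN9A, KCNH1, KCNT2 and CACNG6 show their 10 mM glucose point far left of the others.

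The first question was how these genes differ between 10 mM and 1 mM glucose. At 10 mM glucose SCN9A and KCNH1, which encode a sodium and a potassium pore, were 31.1-fold and 6.2-fold lower, while KCNJ10, SCN3A and KCNA2, which encode 2 potassium pores and a sodium pore, were 4.26- to 7.83-fold higher. Of the 136 genes, 55 passed the filter on low counts, and 9 of these stayed below 1 CPM. 40 of the 55 differed, 25 higher and 15 lower at 10 mM glucose, beside 67.5% of all genes tested, 33.7% higher and 33.8% lower. The 72.7% of the tested channel genes is near the share of all genes, and since a gene can pass the filter through the group where it is high, it describes no more than these 55. The groups did not overlap for 25 genes that were higher and 12 that were lower, beside 31.1% and 30.3% of all genes (37 of 55 and 61.5% in either direction). In size, 13 genes rose and 8 fell by at least 2-fold, beside 6.84% and 6.81% of all genes tested. Among the 22 averaging at least 5 CPM, 21 differed, beside 70.9% of all such genes. The median log2 difference was 0.48 for the tested channel genes and 0.00 for all tested genes. Scaled by library totals, 31 were higher and 11 lower, and the median of all genes itself moved to 0.14.

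**Figure D2:**
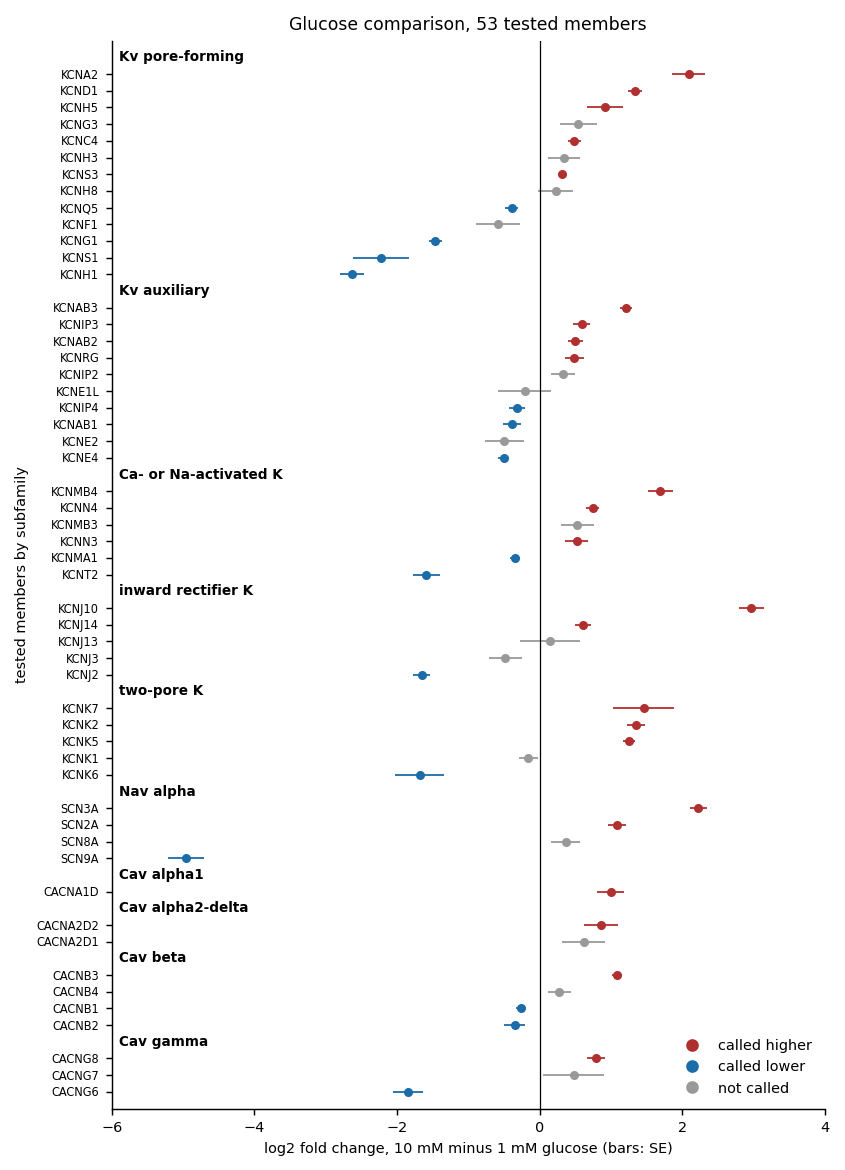
Log2 fold change between 10 mM and 1 mM glucose with its SE (bars) for 53 of the 55 tested channel subunit genes, grouped by subfamily. Red points passed the test as higher at 10 mM (23), blue as lower (15), and grey did not pass (15). No subfamily with more than 3 tested members lies on 1 side of 0, and SCN9A stands farthest from 0, at -4.96.

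Promoters are shown for the members at the extremes of this comparison, KCNJ10 for the rises and SCN9A and KCNH1 for the falls, because these 3 have the largest differences among the genes that RefSeq's promoter table holds. SCN3A is also among the large rises. Each sequence runs 5′ to 3′ from 250 bases before to 50 after the gene's start, in assembly GRCh38.p14, and capitals mark the GC box GGGCGG and the CCAAT box CCAAT on either strand:
KCNJ10 promoter, chr1:160070111-160070410, minus strand: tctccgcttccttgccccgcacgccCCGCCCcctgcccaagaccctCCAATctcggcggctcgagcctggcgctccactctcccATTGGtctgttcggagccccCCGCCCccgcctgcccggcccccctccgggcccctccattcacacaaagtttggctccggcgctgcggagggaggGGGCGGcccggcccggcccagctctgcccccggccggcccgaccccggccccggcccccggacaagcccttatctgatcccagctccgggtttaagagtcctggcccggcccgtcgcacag
SCN9A promoter, chr2:166375895-166376194, minus strand: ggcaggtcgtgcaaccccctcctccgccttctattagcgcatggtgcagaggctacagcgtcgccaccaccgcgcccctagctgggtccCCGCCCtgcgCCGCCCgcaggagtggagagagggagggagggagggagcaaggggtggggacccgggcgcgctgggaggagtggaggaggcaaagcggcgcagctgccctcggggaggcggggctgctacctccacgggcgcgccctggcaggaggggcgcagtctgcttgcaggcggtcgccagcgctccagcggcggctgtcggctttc
KCNH1 promoter, chr1:211134099-211134398, minus strand: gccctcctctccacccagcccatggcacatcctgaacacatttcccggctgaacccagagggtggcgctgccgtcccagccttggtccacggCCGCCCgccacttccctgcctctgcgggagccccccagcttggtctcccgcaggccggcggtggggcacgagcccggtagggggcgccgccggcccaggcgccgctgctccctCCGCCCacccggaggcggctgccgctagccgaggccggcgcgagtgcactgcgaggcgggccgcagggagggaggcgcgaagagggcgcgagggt
The KCNJ10 window held 3 GC boxes and 2 CCAAT boxes, and those of SCN9A and KCNH1 held 2 GC boxes each and 0 CCAAT boxes. The windows of 43 of the 55 tested members could be matched by symbol. GC boxes lay in 15 of 19 promoters of genes that were higher and 10 of 12 that were lower, against 45% of 35116 promoters, and CCAAT boxes in 11 of 19 and 5 of 12, against 34.6%. Over all 43 matched members, with those that did not pass included, 33 held a GC box and 22 a CCAAT box. The 35116 promoters were not limited to tested genes, so they are an unlike set beside these members. The E-box CACGTG (7.26% of all promoters) and the C/EBP-ATF motif TTGCATCA (0.866%) were searched as well, again on both strands. So were the cAMP response element TGACGTCA (1.85%), the AP-1 motif TGACTCA (4.95%) and the box named TATA, with the letters TATAAA (11.5%). The 3 printed windows held 0 of each, and none of the motifs contains another. These are letter matches and not binding sites.

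Among sodium channel alpha subunits, which form the pore, 2 rose, 1 fell and 1 did not pass the test. SCN9A, the peripheral sensory neuron pore, measured 17.3, 15, 10.2 and 10.9 CPM in the 4 libraries at 1 mM glucose and 0.387, 0.181, 0.51 and 0.618 at 10 mM (log2 fold change -4.96, SE 0.25, adjusted p = 2.8e-10 by edgeR). All 10 mM libraries lay far below every library at 1 mM, and the 4 of them together held 46 counts of the gene against 1319. SCN3A, an early brain form, went the opposite way, from 1.51, 1.64, 1.29 and 1.22 CPM to 6.96, 6.46, 6.45 and 6.69 (2.23, SE 0.12, edgeR adjusted p = 4.3e-10). Its neighbour on chromosome 2, SCN2A, rose as well, from 2.9 ± 0.44 to 6.16 ± 0.762 CPM, and for both genes the groups stood apart. SCN1A and SCN7A, which flank SCN9A on chromosome 2, stayed under 0.08 CPM in every library. SCN8A, the alpha subunit with the highest mean over all 12 libraries, had 13.2, 16.3, 7.68 and 11.8 CPM at 1 mM and 16.1, 17.1, 14.5 and 15.6 at 10 mM. Replicate 3, a library poor in long transcripts, was the lowest of its group and replicate 2 overlapped the 10 mM libraries (log2 fold change 0.37, SE 0.21, edgeR adjusted p = 0.132). The call turned without replicate 2 (adjusted p = 0.0334) and with library totals (0.0397).

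The pore-forming voltage-gated potassium subunits split, with 6 higher, 4 lower and 4 not passing among 14 tested. KCNH1, the ether-a-go-go channel often found in tumours, had 41.2, 41.5, 28.3 and 35.3 CPM at 1 mM glucose and 5.73, 5.08, 6.23 and 6.55 at 10 mM (log2 fold change -2.63, SE 0.17, edgeR adjusted p = 4.6e-09). The lowest library at 1 mM still held several times the level of the highest at 10 mM. A transcript annotated on the opposite strand spans 44.8% of the KCNH1 transcript and one on the same strand 19.6%. As no strand setting is given, their reads cannot be told apart from its own. KCNG1 measured 186, 154, 204 and 165 CPM at 1 mM and 62.3, 64.7, 71.6 and 59.3 at 10 mM (-1.46, SE 0.09, edgeR adjusted p = 3.9e-09), again with wide separation. Another silent subunit, KCNS1, fell as well, from 0.84 ± 0.401 to 0.175 ± 0.0528 CPM, and KCNQ5, a subunit of the slow M-type current, fell from 30 ± 3.89 to 22.9 ± 0.335.

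On the rising side, KCNA2, a Shaker-type delayed rectifier, had 0.814, 0.903, 0.78 and 0.367 CPM at 1 mM glucose and 3.4, 3.45, 2.95 and 2.47 at 10 mM (log2 fold change 2.09, SE 0.24, edgeR adjusted p = 1.9e-06). Every 10 mM library was above every 1 mM library, from levels under 1 CPM. KCND1, a pore of the transient A-type current, rose from 4.47 ± 0.346 to 11.3 ± 0.783 CPM. KCNC4 rose from 16.5 ± 1.14 to 23.1 ± 1.14 CPM, a difference that missed the threshold once the trend with transcript length and GC content was removed (edgeR adjusted p = 0.118). KCNS3 rose by 1.24-fold and KCNH5 by 1.88-fold. KCNF1, KCNG3, KCNH3 and KCNH8 did not pass, with log2 differences from -0.59 to 0.54 and SEs from 0.23 to 0.31. KCNH8 and KCNJ10 averaged 1 CPM or more at 10 mM glucose and in no other group. For KCNH8 the difference did not pass (log2 fold change 0.23, edgeR adjusted p = 0.43). It was 0.07 without both libraries poor in long transcripts.

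**Figure D3:**
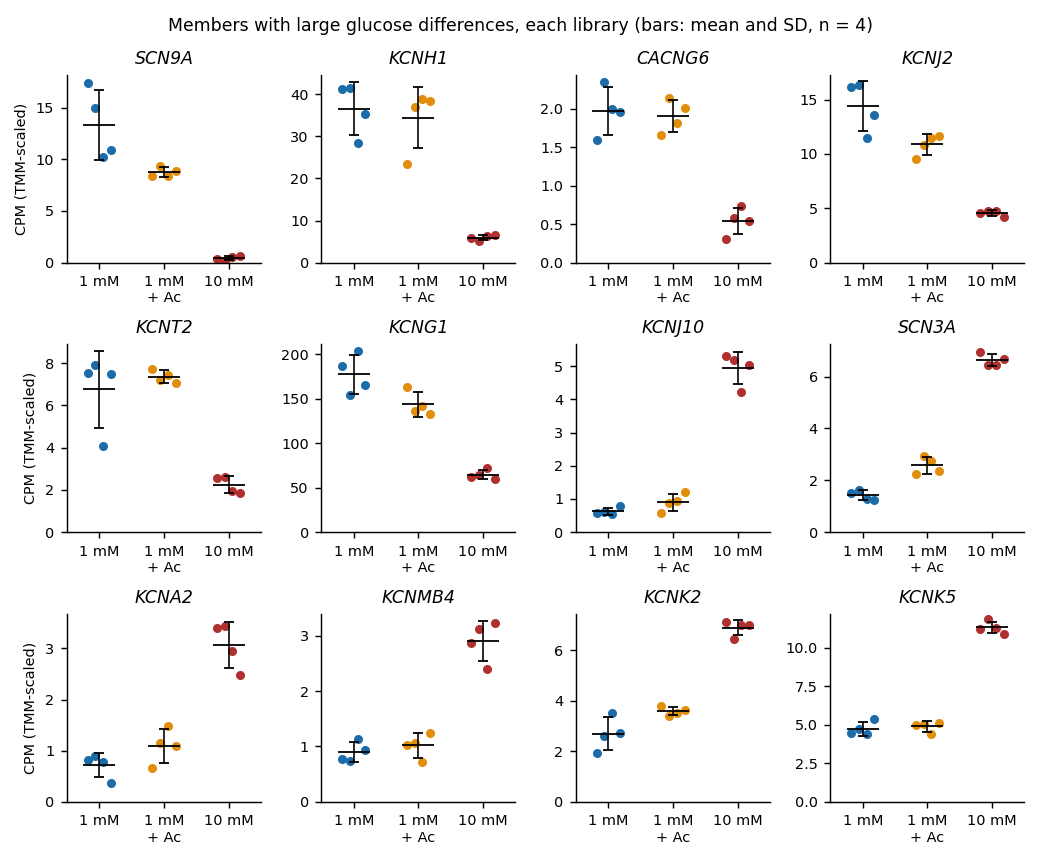
TMM-scaled CPM in each of the 12 libraries for 12 channel subunit genes with large glucose differences (points: libraries, bars: mean and SD, n = 4 per group). The first 6 are lower and the other 6 higher at 10 mM glucose, and in every panel the 1 mM and 10 mM libraries stay apart.

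Auxiliary subunits of these potassium pores gave 4 rises, 3 falls and 3 that did not pass. KCNAB3, a cytoplasmic beta subunit, rose without overlap, from 4.6, 4.15, 5.22 and 4.53 to 11.3, 9.76, 10.9 and 11 CPM (log2 fold change 1.21, SE 0.09, edgeR adjusted p = 1.3e-08). KCNAB2 rose from 7.92 ± 0.77 to 11.2 ± 0.704 CPM, while KCNAB1 fell from 2.56 ± 0.418 to 1.95 ± 0.168 with groups that overlapped. The KChIP proteins, calcium sensors that escort A-type pores to the membrane, also split: KCNIP3 rose 1.5-fold and KCNIP4 fell 1.24-fold. KCNE4, a single-span subunit that inhibits several pores, fell from 9.37 ± 0.376 to 6.59 ± 0.517 CPM. KCNRG, which interferes with potassium channel assembly, rose 1.4-fold, but 66.9% of its transcript lies in exons of TRIM13 on the same strand (log2 fold change 0.17). The calls of KCNIP4 and KCNAB1 did not hold under several alternatives: the edgeR adjusted p of KCNIP4 reached 0.0778 when any of 4 libraries was left out (replicates 2 and 4 at 1 mM, 1 and 4 at 10 mM). It was 0.188 with library totals and 0.102 after the trend with length and GC content was taken out. That of KCNAB1 reached 0.0559 without replicate 2 at 1 mM, 0.0518 without replicate 3, 0.055 without both libraries poor in long transcripts and 0.107 with library totals.

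In the calcium- or sodium-activated group 3 rose, 2 fell and 1 did not pass. KCNN4 rose from 74.5, 71, 96.2 and 77.8 CPM at 1 mM glucose to 134, 128, 145 and 128 at 10 mM (log2 fold change 0.74, SE 0.09, edgeR adjusted p = 5.7e-06), without overlap. KCNN3, a small-conductance channel, rose from 24.3, 25.6, 16.7 and 19.7 CPM to 32.7, 32.9, 28.3 and 29.6, where replicate 3 at 1 mM was again the lowest library. KCNMA1 fell by 1.27-fold, from 92.1 ± 6.55 to 72.6 ± 2.07 CPM. KCNMB4, the beta subunit that slows KCNMA1 channels in neurons, moved against its pore, from 0.773, 0.739, 1.13 and 0.938 to 2.86, 3.12, 2.41 and 3.24 CPM (1.69, SE 0.18, edgeR adjusted p = 7.8e-07). KCNT2, a sodium-activated channel, fell from 7.53, 7.92, 4.05 and 7.5 to 2.55, 2.61, 1.93 and 1.86 CPM (-1.59, SE 0.19, edgeR adjusted p = 3.3e-06), and in all 5 of these genes the groups stayed apart. KCNMB3 measured 1.08 ± 0.0982 and 1.57 ± 0.513 CPM (edgeR adjusted p = 0.0534), with 47% of its transcript in exons of PIK3CA on the opposite strand. KCNMB3 passed as higher without replicate 3 (edgeR adjusted p = 0.0112) or 4 (0.035) at 10 mM, without replicate 1 with acetate (0.0489), without both libraries poor in long transcripts (0.0448) and with library totals (0.0171).

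Inward rectifiers included the largest rise and a large fall. KCNJ10, the main inward rectifier of glial cells, which takes up extracellular potassium, had 0.57, 0.616, 0.546 and 0.775 CPM at 1 mM glucose and 5.3, 5.19, 4.23 and 5.02 at 10 mM (log2 fold change 2.97, SE 0.17, edgeR adjusted p = 1.6e-09). KCNJ2, a strong rectifier that holds the resting potential, went from 16.1, 16.3, 11.5 and 13.5 to 4.57, 4.79, 4.7 and 4.18 CPM (-1.65, SE 0.12, edgeR adjusted p = 1e-08). Neither gene had overlapping libraries, and per kb of transcript KCNJ2 stood at 2.67 against 0.12 for KCNJ10 at 1 mM, but at 0.846 against 0.948 at 10 mM. KCNJ14 rose 1.52-fold, from 4.49 ± 0.479 to 6.84 ± 0.876 CPM. KCNJ3 and KCNJ13 did not pass, and KCNJ3 passed as lower without replicate 3 at 1 mM (edgeR adjusted p = 0.0131).

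Two-pore potassium channels, which carry the leak current, gave 3 rises and 1 fall. KCNK2, a stretch- and lipid-sensitive channel, rose from 1.91, 2.59, 3.51 and 2.73 to 7.12, 6.46, 7 and 6.98 CPM (log2 fold change 1.35, SE 0.13, edgeR adjusted p = 2.9e-07). KCNK5, which opens at alkaline pH, rose from 4.44, 4.72, 4.41 and 5.38 to 11.2, 11.8, 11.3 and 10.9 (1.26, SE 0.08, edgeR adjusted p = 4.9e-09). Both sets of 10 mM libraries lay clear of the 1 mM ones. KCNK7 (0.281 ± 0.115 to 0.789 ± 0.307 CPM) rose and KCNK6 (0.484 ± 0.126 to 0.149 ± 0.0652) fell, both below 1 CPM in every group mean and named after their values were seen. KCNK1 did not pass (log2 fold change -0.16, SE 0.13).

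For the calcium channels, the alpha1 pore CACNA1D, an L-type channel that opens at fairly negative voltages, rose from 2.52, 3.53, 2.22 and 2.2 to 5.84, 4.54, 5.32 and 5.2 CPM (log2 fold change 1.00, SE 0.19, edgeR adjusted p = 0.00038). The 4 beta subunits, which carry alpha1 pores to the membrane, parted. CACNB3 rose from 17.1, 14.7, 18 and 15.6 to 36.8, 32.9, 35.5 and 33.5 CPM (1.08, SE 0.07, edgeR adjusted p = 5.6e-09). CACNB1 fell from 10.4 ± 0.732 to 8.72 ± 0.331, a change that missed the threshold under library totals (edgeR adjusted p = 0.182). CACNB2 fell from 1.96 ± 0.213 to 1.54 ± 0.217 CPM with overlapping groups, a call that ended when any of 8 libraries was left out (3 of each glucose group and 2 of acetate), with an edgeR adjusted p of up to 0.145, and it was 0.0698 without both libraries poor in long transcripts. CACNB4 measured 1.84 ± 0.478 and 2.23 ± 0.21 CPM and did not pass.

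Of the gamma subunits, CACNG6, related to the skeletal muscle form, had 1.59, 2.34, 1.99 and 1.96 CPM at 1 mM glucose and 0.31, 0.581, 0.729 and 0.546 at 10 mM (log2 fold change -1.85, SE 0.21, edgeR adjusted p = 1.8e-06), without overlap. Its neighbour on chromosome 19, CACNG8, which accompanies AMPA-type glutamate receptors, rose from 2.98 ± 0.225 to 5.16 ± 0.451 CPM. CACNG7, on the far side of CACNG8, did not pass at 0.383 ± 0.25 and 0.536 ± 0.09. The alpha2-delta subunit CACNA2D2 rose from 0.392 ± 0.115 to 0.721 ± 0.122 CPM, and CACNA2D1, at 0.261 ± 0.11 and 0.405 ± 0.093 CPM, did not pass (edgeR adjusted p = 0.1). CACNA2D1 passed as higher without replicate 3 at 1 mM (adjusted p = 0.0396), without both libraries poor in long transcripts (0.0378) and with library totals (0.0414).

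The acetate comparison asks what 5 mM acetate adds at 1 mM glucose. It moved fewer of the channel genes and by less: SCN3A, CACNB4, KCND1, KCNAB3, CACNG8, CACNB3, SCN2A and KCNS3 were 1.15- to 1.82-fold higher, and KCNE4, SCN9A, KCNJ2 and KCNG1 were 1.24- to 1.55-fold lower. These 12 of 55 tested, 8 higher and 4 lower, compare with 13.7% of all genes tested, 6.65% higher and 7.09% lower. No channel gene that passed reached 2-fold, beside 0.222% of all genes upward and 0.479% downward. The groups did not overlap for 9 genes that were higher and 2 that were lower, beside 7.36% and 8.2% of all genes (11 and 15.6% in either direction). Of the 22 channel genes averaging at least 5 CPM, 8 passed, beside 14.7% of all such genes. The median log2 difference was 0.12 for the tested channel genes and 0.00 for all. With the 8 libraries compared fitted alone 7 of these 12 remained, with 1 library left out 8 to 15 genes passed, and with library totals 13 passed, 10 of them higher.

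Sodium pores took 3 of the 12 places. SCN3A had 2.25, 2.94, 2.76 and 2.34 CPM with acetate, each above every library at 1 mM glucose alone (log2 fold change 0.86, SE 0.13, edgeR adjusted p = 0.00072). SCN9A had 8.35, 9.38, 8.4 and 8.88 CPM, each below the lowest library at 1 mM, 10.2 (-0.61, SE 0.16, edgeR adjusted p = 0.0195). Its call was lost without replicate 1 at 1 mM (adjusted p = 0.0695) or replicate 3 with acetate (0.0559). SCN2A, at 3.96 ± 0.413 against 2.9 ± 0.44 CPM, had an edgeR adjusted p of 0.0402 that rose to as much as 0.122 when any of 7 libraries was left out: replicates 1 and 4 at 1 mM, 2, 3 and 4 with acetate, and 2 and 3 at 10 mM. The SCN2A call was also lost with the length and GC trend removed (edgeR adjusted p = 0.0908), with the replicate block added to that (0.105), and with limma-voom (0.0513).

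Potassium channel genes gave 3 rises and 3 falls with acetate. KCND1 rose to 5.91, 7.86, 7.57 and 6.95 CPM and KCNAB3 to 6.76, 6.18, 7.19 and 6.88, all above the 1 mM libraries (edgeR adjusted p = 0.00079 and 0.0012). KCNE4 fell to 6.28, 5.45, 6.28 and 6.2 CPM, below every library at 1 mM (log2 fold change -0.63, SE 0.08, edgeR adjusted p = 0.00017). Its level with acetate was close to that at 10 mM glucose, 6.59 ± 0.517, from which it did not differ by the test (0.12, SE 0.08). KCNS3 rose from 33.9 ± 0.933 to 39.1 ± 1.97 CPM, without overlap. KCNJ2 fell to 10.9 ± 0.942 CPM and KCNG1 to 144 ± 13.6, both with overlapping libraries. KCNJ2 lost its call without replicate 1 at 1 mM (edgeR adjusted p = 0.0722) or replicate 2 with acetate (0.0531). KCNG1 lost it without any of 8 libraries (up to 0.119), namely replicates 1, 3 and 4 at 1 mM, 2, 3 and 4 with acetate, and 1 and 2 at 10 mM.

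Calcium channel genes that passed with acetate all rose. CACNB3 had 23.2, 24.4, 21.5 and 23.3 CPM with acetate, above the 18 CPM of the highest library at 1 mM (log2 fold change 0.50, SE 0.07, edgeR adjusted p = 0.00051). CACNB4 had 3.18, 2.82, 3.18 and 2.91 CPM (0.72, SE 0.16, edgeR adjusted p = 0.0091), above 2.04, 2.13, 1.13 and 2.08 at 1 mM, where replicate 3 was low. Without both libraries poor in long transcripts the CACNB4 difference was 0.51 (adjusted p = 0.0109). Of the acetate calls, CACNB4 alone did not pass for glucose (log2 fold change 0.28, SE 0.17), and 60.6% of its transcript lies in exons of another annotated gene on the same strand. CACNG8 rose to 4.29 ± 0.838 CPM, with an edgeR adjusted p of 0.0197 that went to 0.0706 without replicate 4 with acetate and 0.0661 without replicate 3.

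**Figure D4:**
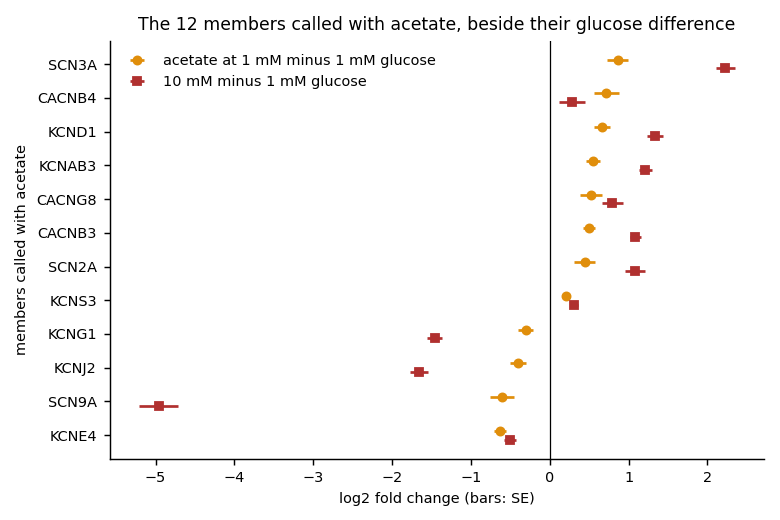
Log2 fold change with SE (bars) of the 12 channel subunit genes that passed the acetate test, for acetate (orange circles) and for 10 mM glucose (red squares), both against the same 1 mM glucose libraries. Glucose differences exceed those of acetate for SCN3A, SCN9A, KCNG1 and KCNJ2, among others, while the acetate values of KCNE4 and CACNB4 lie beyond their glucose values.

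No gene passed both tests in opposite directions. The acetate and glucose comparisons share the 1 mM libraries, so the likeness of their signs is no independent result. In the mean levels, acetate lay between the other groups for CACNB3 (16.3, 23.1 and 34.7 CPM in the order 1 mM, acetate, 10 mM), KCNAB3 (4.62, 6.75 and 10.7), KCND1 (4.47, 7.07 and 11.3), SCN3A (1.41, 2.57 and 6.64), KCNG1 (177, 144 and 64.5) and KCNJ2 (14.4, 10.9 and 4.56). With SCN2A and SCN9A, these 8 genes passed all 3 tests, 4 of them (KCNG1, KCNJ2, SCN2A and SCN9A) with acetate calls that ended without some single libraries. By contrast KCNH1 (36.6, 34.4 and 5.9 CPM), CACNG6 (1.97, 1.9 and 0.541), KCNT2 (6.75, 7.36 and 2.24) and KCNK5 (4.74, 4.89 and 11.3) did not pass for acetate, with log2 differences of -0.09, -0.05, 0.13 and 0.05 and SEs of 0.15, 0.17, 0.16 and 0.09.

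Both libraries that were poor in long transcripts bore on this comparison. CACNA1D had 2.11 CPM in replicate 1 with acetate and 3.89, 4.01 and 4.23 in the others, and it passed as higher with acetate once that library was left out (edgeR adjusted p = 0.0116). KCNN3 and SCN8A also had their lowest library at that replicate, with 12.9 and 8.28 CPM. KCNK2 had 3.51 CPM in replicate 3 at 1 mM, within its acetate range of 3.39 to 3.81, and passed as higher with acetate without that library (edgeR adjusted p = 0.00596). KCNJ10 passed as higher with acetate without replicate 1 with acetate (edgeR adjusted p = 0.0362), but not without both libraries. Without both libraries 17 channel genes passed for acetate, 13 higher and 4 lower. The 5 added were all higher and included CACNA1D, KCNA2, KCNK2 and KCNN4.

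**Figure D5:**
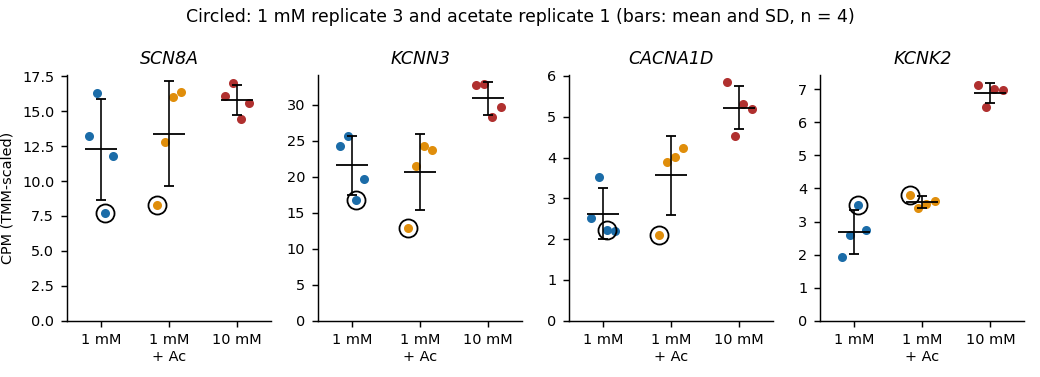
TMM-scaled CPM in each library for SCN8A, KCNN3, CACNA1D and KCNK2 (points: libraries, bars: mean and SD, n = 4), with replicate 3 at 1 mM glucose and replicate 1 with acetate circled. The circled libraries are the lowest of their group for SCN8A and KCNN3, and replicate 3 is the highest at 1 mM for KCNK2 (3.51 CPM).

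The last comparison sets 10 mM glucose against 1 mM glucose with acetate, and it shares its 10 mM libraries with the first. SCN9A was 20.4-fold and KCNH1 5.84-fold lower at 10 mM glucose than with acetate, and KCNJ10 was 5.43-fold higher. In all, 38 of 55 differed, 23 higher and 15 lower, beside 62.8% of all genes tested, 31% higher and 31.7% lower. The groups did not overlap for 22 higher and 15 lower, beside 30.8% and 30.1% of all genes (37 and 61% in either direction), and the median log2 difference was 0.24. Differences of at least 2-fold were seen for 7 genes upward and 9 downward, beside 4.68% and 5.51% of all genes, and 19 of 22 genes averaging at least 5 CPM passed, beside 66.5%. KCNJ10 had 0.591, 0.877, 0.946 and 1.21 CPM with acetate, well below its 4.23 to 5.3 at 10 mM (log2 fold change 2.44, SE 0.16, edgeR adjusted p = 7.4e-09). KCNMB4, KCNA2, SCN3A and KCNK5 were 2.31- to 2.85-fold higher and CACNG6, KCNT2, KCNJ2 and KCNG1 were 2.23- to 3.48-fold lower.

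KCNJ3, a G-protein-gated inward rectifier, passed the test here and not in the other comparisons: it had 1.77, 1.07, 1.4 and 1.32 CPM with acetate, against 0.619, 0.689, 0.729 and 0.618 at 10 mM and 1.1, 1.03, 0.585 and 1.02 at 1 mM glucose (log2 fold change -1.06, SE 0.21, edgeR adjusted p = 0.0005). Acetate was the condition in which this gene averaged above 1 CPM, and its libraries overlapped those at 1 mM but not those at 10 mM. The 0.585 CPM at 1 mM came from replicate 3, a library poor in long transcripts. Without both such libraries KCNJ3 also passed as lower at 10 mM than at 1 mM glucose (log2 fold change -0.65, edgeR adjusted p = 0.00888). The acetate difference then went from 0.58 to 0.27 (edgeR adjusted p = 0.374), and that between 10 mM glucose and acetate was -0.92. CACNB4 passed here as lower at 10 mM (-0.44, SE 0.15), but not without replicate 3 with acetate (edgeR adjusted p = 0.0516) or replicate 1 at 10 mM (0.0671). The CACNB4 call was also lost with the length and GC trend removed (0.0566), with the replicate block added to that (0.0857) and with library totals (0.0705). CACNA1D was 1.47-fold higher, with an adjusted p of 0.0512 without replicate 1 at 10 mM. KCNH3, at 0.414 ± 0.0622 and 0.693 ± 0.109 CPM, passed as 1.66-fold higher, and KCNH5 as 1.48-fold higher, but the KCNH5 call ended without any of 8 libraries (edgeR adjusted p up to 0.13). KCNJ14, KCND1, KCNAB3, SCN2A and KCNC4 were 1.54- to 1.62-fold higher, and KCNK2 1.92-fold. Without both libraries poor in long transcripts KCNS3 passed as higher (edgeR adjusted p = 0.0169, from 0.104) and CACNB2 as lower (0.0489, from 0.0651) at 10 mM than with acetate, as each did without replicate 1 with acetate alone (0.0305 and 0.048). In none of the 3 tests, in the main fit on all 12 libraries, did CACNA2D1, CACNG7, KCNE1L, KCNE2, KCNF1, KCNG3, KCNH8, KCNIP2, KCNJ13, KCNK1, KCNMB3 and SCN8A pass. With the length and GC trend removed, KCNIP2 passed as higher at 10 mM than at 1 mM glucose (edgeR adjusted p = 0.00939) and than with acetate (0.0491). With library totals KCNIP2 (0.0275) and KCNG3 (0.0281) passed as higher for glucose. KCNF1 passed as lower for glucose without replicate 1 at 1 mM (0.0378). KCNH8 passed as higher than with acetate without replicate 2 at 10 mM (0.0495).

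Genes that work beside these channels were read from 4 lists. Their counts, and those of the markers below, stand beside the shares of all genes tested. These were 33.7% higher and 33.8% lower for glucose, and 6.65% higher and 7.09% lower for acetate. Of 23 tested partners outside the symbol rule, 9 were higher and 7 lower at 10 mM glucose (median log2 difference 0.31). GEM, a small GTPase that holds back calcium channels by binding their beta subunits, fell from 40.3 ± 3.91 to 9.24 ± 0.683 CPM (log2 fold change -2.12, edgeR adjusted p = 1.4e-11). REM1, on the same list, went the other way, from 6.15 ± 1.29 to 14.3 ± 2.18 CPM (1.21, edgeR adjusted p = 2.9e-06). STAC2, an adaptor of L-type channels, rose from 0.784 ± 0.199 to 2.38 ± 0.265 CPM (1.59), while STAC (-0.54) and STAC3 (-0.68) fell. ANK2, an ankyrin that anchors channels, fell (-1.22), while ANK3 rose (0.95). With acetate 5 partners rose and 2 fell, among them GEM at 27.4 ± 1.37 CPM. Of 35 other ion channels 15 rose and 16 fell for glucose and 4 rose and 2 fell for acetate. The largest glucose differences there were UNC80, a partner of the sodium leak channel (2.14), and the TRP channels TRPM3 (1.26) and TRPM8 (1.08).

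Among 19 tested genes of calcium stores and store-operated entry, 4 rose and 5 fell for glucose and 1 fell for acetate. ITPR2, a calcium release channel, rose (log2 fold change 1.04), while ATP2A2, a calcium pump of the endoplasmic reticulum, and STIM1, a calcium sensor there, fell (-0.84 and -0.73). STIM2 rose (0.49). Of 9 tested genes of the sodium pump and of cation transport, 2 rose and 5 fell for glucose, with the cotransporter SLC12A2 at 0.96.

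Markers of other cell types were measured beside the channel genes, and their part in the results was not tested. Of 6 tested neuron markers 1 rose for glucose (SNAP25, log2 fold change 0.88) and 1 fell (SYT1, -2.10). STMN2 had no count, and the summed level of the 10 listed ranged from 444 to 499 CPM at 1 mM, 389 to 408 with acetate and 376 to 412 at 10 mM. Of 3 tested astrocyte markers 2 rose, SLC1A3 (1.26) and S100B (1.10), for a summed level of 81.2 to 113 CPM at 1 mM, 117 to 137 with acetate and 193 to 204 at 10 mM. Of 5 tested oligodendrocyte lineage markers 4 rose, among them OLIG1 (2.47) and CSPG4 (0.84), and OLIG2 fell (-1.56), with sums of 772 to 899, 868 to 993 and 1290 to 1371 CPM. OLIG1 stayed below 1 CPM in every library, while OLIG2 went from 24.9 ± 2.13 to 8.47 ± 0.789 CPM. AQP4, MBP and MOG stayed under 0.5 CPM in every library. Of 7 blood and endothelial markers 2 were tested, VWF, which rose (1.52), and CD68, which fell (-1.52), with sums of 54.7 to 65 CPM at 1 mM, 62.9 to 70.2 with acetate and 18.9 to 23.1 at 10 mM, and HBB had no count. VWF was below 1 CPM in every group mean. No muscle marker was tested, MYOD1 had no count, and the 5 together stayed at or below 0.651 CPM. Of the 5 line markers, all tested, 2 rose for glucose, among them SOX2 (2.40), and 3 fell, among them VIM (-0.48). They summed to 6351 to 7581 CPM at 1 mM, 5914 to 6342 with acetate and 5699 to 5811 at 10 mM. With acetate SNAP25, S100B, VWF and SOX2 were among the markers that rose, and OLIG2 and VIM fell.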

How the data were processed

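Raw counts for 34917 RefSeq transcripts per library were deposited by the authors as whole numbers with no normalization, with the build hg19 named in the submitters' processing notes. For the aligner, the counting program and the strand, the sources used here give nothing. The files also mark 1 transcript per gene; it was used where its accession was NM (132 of 136 channel genes), otherwise the NM transcript with the highest total. The channel genes, lists and tests were chosen with earlier results of these data known. Genes named in the text were those past the threshold with the largest fold changes (up to 20 per comparison, 1 CPM or more in a group), the 10 highest per kb, the highest of each subfamily, and those nearest 1 CPM. Further members are named to account for each subfamily. Some members, and some genes of other lists, are counted but not reported here. Counts of all 12 libraries were fitted with edgeR 4.0.16 in R 4.3.3, using filterByExpr, TMM scaling and 1 mean per group, and p-values were adjusted over 14416 genes. The method was tested on simulated data with a far smaller share of changed genes than here, which does not vouch for single calls. No pair of replicates agreed within sampling noise (chi-square per gene 2.75 to 50.7), and same-numbered libraries did not vary together. Transcript lengths and exon overlaps came from GENCODE v29, promoters and gene neighbours from RefSeq. Alternatives covered scaling, DESeq2 1.42.0, limma 3.58.1, filters, length and GC trends, transcripts and left-out libraries.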

Additional observations from a re-analysis of the deposited data

Results flagged for a closer look

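In 11 of 165 groups of 4 libraries checked, 1 library stood away from the other 3 by more than Dixon's 95% limit, while chance alone marks about 1 in 20. Replicate 3 at 1 mM glucose, a library poor in long transcripts, was the low one for 4 of these: KCNT2 at 4.05 CPM against 7.5 to 7.92, CACNB4 at 1.13 against 2.04 to 2.13, KCNJ3 at 0.585 against 1.02 to 1.1, and KCNH8 at 0.585 against 0.936 to 0.985. Replicate 1 with acetate, the other such library, was low for KCNH1, at 23.5 CPM against 36.9 to 38.9, and for CACNA1D, at 2.11 against 3.89 to 4.23.

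The other 5 came from other libraries. With acetate, replicate 2 was low for KCNE4 (5.45 CPM) and replicate 3 for KCNK5 (4.39). At 10 mM glucose, replicate 2 was high for CACNA2D1 (0.544) and KCNS1 (0.254), and replicate 3 was low for CACNG7 (0.401).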

How the results depend on the processing

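No tested channel gene reversed a call under any alternative run. For glucose, 1235 of 1285 values for single genes kept their side of the threshold, for acetate 1236 of 1285 and for 10 mM glucose against acetate 1247 of 1286. Values that passed in neither run count as kept even where their sign changed. KCNE1L did so for glucose, from -0.21 to 0.14 without both libraries poor in long transcripts. Among genes averaging at least 5 CPM, 21 of 22 tested passed for glucose and 19 of 22 against acetate, a smaller set by construction. With only the 8 libraries compared in the fit, 7 passed for acetate. Leaving out 1 library gave 39 to 41 genes for glucose, 8 to 15 for acetate and 36 to 39 for 10 mM glucose against acetate. A replicate block gave 39, 12 and 37. Same-numbered libraries correlated from -0.365 to 0.270 in their deviations, so no pairing by replicate number was seen. The 2 libraries poor in long transcripts correlated at 0.591, above any same-numbered pair, so these values cannot exclude a pairing. The DESeq2 Wald test gave 39, 14 and 37, limma-voom 40, 11 and 37, and no filter 45, 12 and 41. Precision at low depth varied by gene: near 0.5 CPM, CACNG7 and KCNJ13 had SEs of 0.39 to 0.44 on the log2 scale, and CACNA2D2 0.22 to 0.26.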
